A study of Mus musculus with 6 samples.

Results

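Neutrophil granule and receptor genes were followed in the aorta of mice given erythropoietin and of mice given saline. The set is a list of 34 gene symbols, matched through their Ensembl IDs to the 47643 genes of the count table, and all 34 were found. They were grouped by role into 4 primary granule genes, 2 transcription factors, 7 secondary and tertiary granule genes, 11 genes of cytosolic or secreted proteins of mature cells, 9 surface proteins and receptors, and 1 ligand. Of the 34, 30 had enough counts to be tested; Ctsg, Stfa2, Ly6g and Csf3 did not and are given by their counts.

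All 6 libraries came from the aorta of Apoe-/- mice, which lack apolipoprotein E and develop high plasma cholesterol and atherosclerosis. The EPO group (3 libraries) was injected intraperitoneally with recombinant human erythropoietin, the hormone of red cell production, at 5000 IU per kg daily, and the Vehicle group (3 libraries) with saline, each for 4 weeks. Both groups carry the same deficiency, so the comparison is of treatment on that background, and wild-type mice were not analysed here. The labels give no age and do not say whether each library is 1 animal, so the spread reported is that between libraries and may be technical in part. In whole tissue, a difference in the number of neutrophils cannot be told apart from a difference in RNA per cell.

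Neutrophils are short-lived white cells that are made in the bone marrow and enter tissue from blood. Their granules are filled in sequence: primary (azurophil) granule genes such as Mpo and Elane are transcribed in promyelocytes, secondary granule genes such as Ltf and Ngp in myelocytes and metamyelocytes, and genes of cytosolic and surface proteins such as S100a8 and Csf3r in late and mature cells. Much of the early transcription has ended by the time a neutrophil circulates. In aneurysm and atheroma, neutrophils are known as a source of proteases and oxidants.

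The libraries held between 23278649 and 38502430 counts. All 7 smooth muscle markers were present in every library, and their summed level was 27947, 19594 and 23376 CPM (counts scaled to the library's total) in Vehicle 1, 2 and 3 and 7151, 7363 and 9136 CPM in EPO 1, 2 and 3. Skeletal muscle fibre markers summed to between 6.1 and 13.9 CPM in Vehicle and to 1131, 2713 and 312 CPM in EPO 1, 2 and 3. For the neutrophil genes EPO 3 stood apart. It had the highest level of all 6 libraries for 29 of the 30 tested members, against 14.1% of all genes tested, so the fitted changes are also given without it.

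Promoter sequence is shown first for 5 members that the results turn on: Mpo (primary granule, the member with the lowest p), Ngp (secondary granule, the largest fitted change), Mmp8 (the granule gene of that group that passed), S100a9 (mature cytosol, the highest level per kilobase) and Trem1 (receptors, the largest fitted change of that group). Each is taken from the 250 bases before the RefSeq gene start on GRCm38.p6 and read 5′ to 3′ on the gene's strand. Only bases that also lie before the gene's first annotated base in GENCODE are printed, which leaves 47 bases for Mpo and 189 for Ngp. Capitals mark matches to the C/EBP letters TTNNGNAA (on the other strand TTNCNNAA) or the PU.1 letters GAGGAA (on the other strand TTCCTC).
Mpo (chr11:87793534-87793580, plus strand): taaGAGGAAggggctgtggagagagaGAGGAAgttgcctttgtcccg
Ngp (chr9:110419558-110419746, plus strand): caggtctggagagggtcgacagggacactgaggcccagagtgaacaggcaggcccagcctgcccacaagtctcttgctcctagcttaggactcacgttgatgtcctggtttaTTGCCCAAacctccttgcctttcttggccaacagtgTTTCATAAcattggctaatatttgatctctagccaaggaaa
Mmp8 (chr9:7558179-7558428, plus strand): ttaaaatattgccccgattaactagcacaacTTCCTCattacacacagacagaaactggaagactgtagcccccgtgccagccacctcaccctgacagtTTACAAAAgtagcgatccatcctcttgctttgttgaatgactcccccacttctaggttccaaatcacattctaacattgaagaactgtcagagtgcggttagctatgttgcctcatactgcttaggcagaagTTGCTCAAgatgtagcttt
S100a9 (chr3:90695722-90695971, minus strand): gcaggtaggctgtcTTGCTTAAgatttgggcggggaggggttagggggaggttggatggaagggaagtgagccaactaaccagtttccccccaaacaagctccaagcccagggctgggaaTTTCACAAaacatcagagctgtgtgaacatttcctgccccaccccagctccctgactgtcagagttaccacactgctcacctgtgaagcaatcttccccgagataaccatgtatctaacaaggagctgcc
Trem1 (chr17:48232489-48232738, plus strand): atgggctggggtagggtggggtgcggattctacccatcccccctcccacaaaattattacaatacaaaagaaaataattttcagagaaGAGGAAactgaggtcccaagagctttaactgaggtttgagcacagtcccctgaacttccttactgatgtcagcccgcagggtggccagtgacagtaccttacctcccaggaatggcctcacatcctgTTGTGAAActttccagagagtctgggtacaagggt
Over the whole 250 bases, Mpo held 2 PU.1 matches, at 247 and 224 bases before the start, and no C/EBP match. Ngp held 3 C/EBP matches, at 138, 102 and 11 bases, and no PU.1 match, and S100a9 held 2 C/EBP matches, at 236 and 130 bases. Mmp8 had C/EBP matches at 151 and 19 bases and a PU.1 match at 219 bases, and Trem1 a C/EBP match at 35 and a PU.1 match at 162 bases.

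RefSeq windows were found for 31 members (33 windows, Ly6g and Gfi1 with more than 1 start), and none for Cebpe, Csf3 and Trem3. C/EBP proteins, of which Cebpe is the form of late granulocyte development, and PU.1, the product of Spi1, are known regulators of myeloid genes. At least 1 C/EBP match lay in 19 of 33 member windows (57.6%), against 36.8% of all 32817 windows of this length. A PU.1 match lay in 20 of 33 member windows (60.6%), against 23.3% of all windows. None of the 4 primary granule genes had a C/EBP match, and all 4 had a PU.1 match. Among secondary and tertiary granule genes 5 of 7 had a C/EBP match and 4 of 7 a PU.1 match, and among mature cytosolic and secreted genes 7 of 11 and 4 of 11. No C/EBP and PU.1 match shared bases in these windows. These are matches of letters, given as a description.

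With EPO, 6 of the 30 tested members were higher and none lower at an edgeR adjusted p under 0.05 (20% of those tested), against 12.9% of all genes tested that were higher and 10.1% that were lower. The 6 were Mpo, Mmp8, Slpi, Csf3r, Fpr1 and Trem1. At an unadjusted edgeR p under 0.05 there were 23 higher and 0 lower. All 30 fitted log2 fold changes were above 0, with a median of 2.11 where the median over all tested genes was 0.011. The groups did not overlap for 11 of the 30, EPO above in each, against 22.9% of all genes with EPO above and 21% with EPO below. The SE of the log2 fold change ran from 0.31 for Ltb4r1 to 1.50 for Stfa2l1. Without EPO 3 the median log2 fold change of the members was 1.06, 26 of 30 were above 0, and 3 of 31 tested members (Mpo, Fpr1 and Trem1) were higher, against 10.5% of all genes in that fit. Without EPO 1 the count was 18 of 31 (13.3% of all genes). Without Vehicle 1 it was 2 of 32 (5.49% of all genes) and without Vehicle 2 it was 1 of 32 (6.3%), both near or below the share of all genes.

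**Figure D1:**
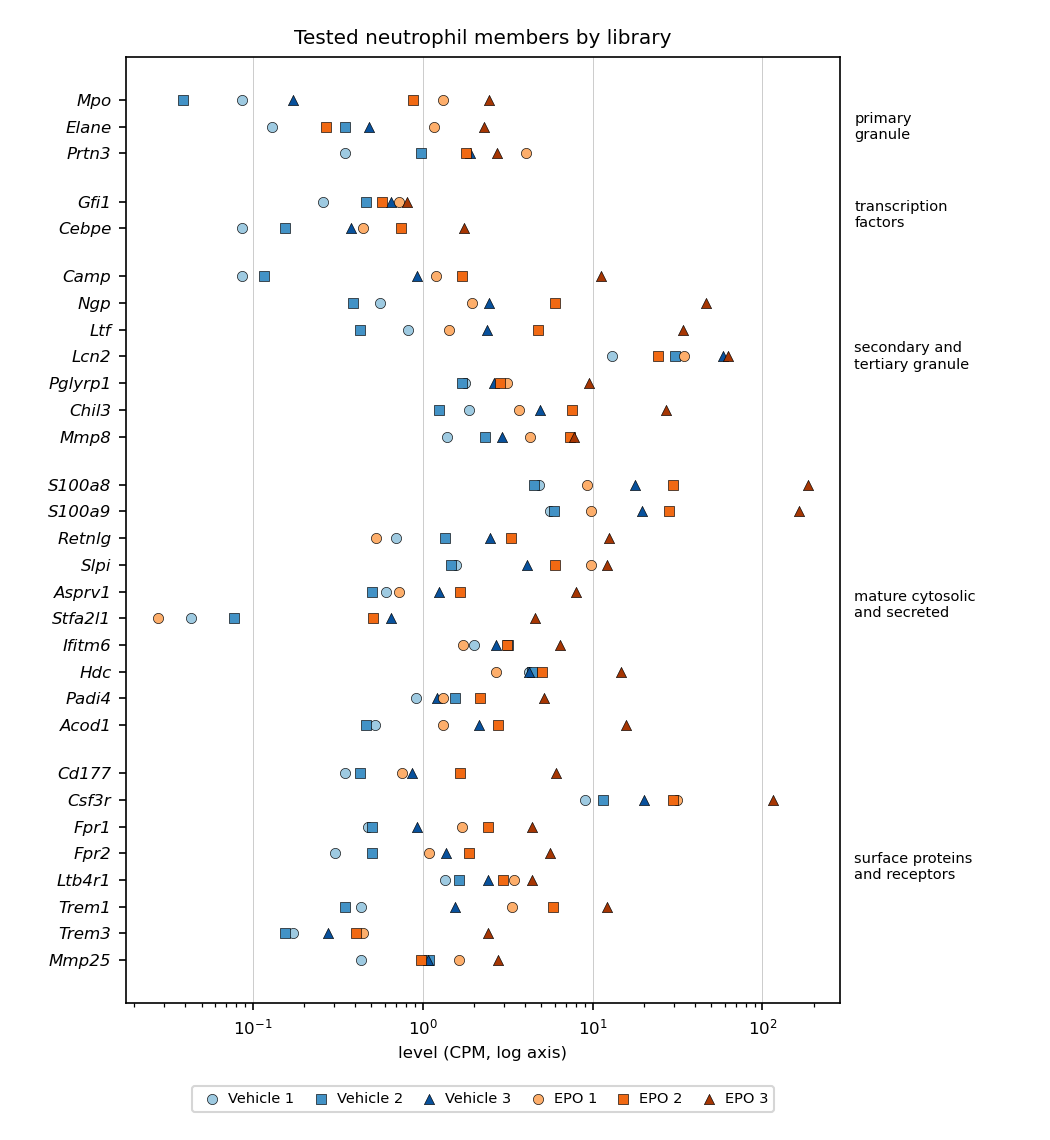
Level of each of the 30 tested members in CPM (horizontal log axis) in the 3 Vehicle libraries (blue) and the 3 EPO libraries (orange to brown), grouped by role. EPO 3, the brown triangle, lies furthest right for all members but Prtn3, and Vehicle 3, the dark blue triangle, is the highest Vehicle library for 26 of 30.

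The order of the libraries was shared by most members. EPO 3 lay above every Vehicle library for 30 of 30 tested members, EPO 2 for 23 and EPO 1 for 15, against 37.2%, 37.9% and 40.5% of all genes tested. EPO 3 reached at least 2 times the mean of EPO 1 and EPO 2 for 25 of 30 members (3.41% of all genes) and at least 5 times for 11 (0.278%). Within Vehicle, Vehicle 3 was the highest library for 26 of 30 members (29.9% of all genes). The order EPO 3 above EPO 2 above EPO 1 held for 19 of 30 members (22.1% of all genes). The members share libraries, so these counts describe the libraries and are not independent observations.

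Summed over all 34 members, the level was 54.2, 78.8 and 164 CPM in Vehicle 1, 2 and 3 and 139.9, 188 and 792 CPM in EPO 1, 2 and 3. EPO 1 therefore lay below Vehicle 3, EPO 2 just above it and EPO 3 far above both. The ratio of the group means was 3.77 with all libraries and 1.66 without EPO 3. S100a8 and S100a9 made up 19.2, 13.3 and 22.8% of the sum in Vehicle 1, 2 and 3 and 13.6, 30.8 and 44% in EPO 1, 2 and 3. Without those genes the ratio of group means was 2.91.

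Early granule genes were low in every library. Their summed level did not overlap between the groups (0.695, 1.4 and 2.55 CPM in Vehicle 1, 2 and 3, and 6.83, 3.39 and 8.12 CPM in EPO 1, 2 and 3), nor did those of the transcription factors (0.348, 0.622 and 1.04 and 1.17, 1.32 and 2.56 CPM) and of the surface proteins and receptors (12.6, 16.3 and 28.8 and 44, 46.1 and 154 CPM). The sums of the secondary and tertiary group and of the mature cytosolic and secreted group overlapped. Mpo, the myeloperoxidase that makes hypochlorous acid (ENSMUSG00000009350, chromosome 11, 87793581 to 87804413, plus strand, GRCm38 as for all positions of genes), was counted 2, 1 and 5 times in Vehicle 1, 2 and 3 and 47, 26 and 82 times in EPO 1, 2 and 3. These counts equal 0.0869, 0.0389 and 0.173 CPM for Vehicle and 1.31, 0.883 and 2.47 CPM for EPO, so that every EPO library was above every Vehicle library. Mpo rose 14.7-fold (edgeR log2 fold change 3.88 with SE 0.64, adjusted p = 0.00624), the lowest p of any member. It was higher in each of the 6 fits that left out 1 library (edgeR adjusted p from 0.0114 to 0.0363). Its Vehicle level rests on 8 counts in all, and at a minimum of 1 CPM in 3 samples the gene was not tested. Of its exons, 512 bases overlap the antisense gene Gm11505, which was listed at 0 in all 6 libraries.

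Elane, neutrophil elastase (ENSMUSG00000020125, chromosome 10, 79886247 to 79888215), stood at 0.13, 0.35 and 0.483 CPM in Vehicle 1, 2 and 3 and 1.17, 0.272 and 2.28 CPM in EPO 1, 2 and 3. EPO 1 and EPO 3 were above every Vehicle library, while EPO 2 lay below Vehicle 2 and Vehicle 3 (edgeR log2 fold change 1.92 with SE 0.78, adjusted p = 0.116). Without EPO 2 it passed (edgeR adjusted p = 0.0418). Prtn3, the related serine protease proteinase 3, is its neighbour (ENSMUSG00000057729, chromosome 10, 79874476 to 79883174) and was the 1 tested member with its highest level in EPO 1. Prtn3 had 0.348, 0.972 and 1.9 CPM in Vehicle and 4.07, 1.8 and 2.74 CPM in EPO, with EPO 2 below Vehicle 3 (edgeR log2 fold change 1.40 with SE 0.58, adjusted p = 0.122). Exons of Prtn3 share 159 bases with Plppr3 on the opposite strand, a gene that was itself higher with EPO and highest in EPO 1 (3.87, 7.23 and 7.69 CPM in Vehicle and 18.7, 14 and 13.3 CPM in EPO, edgeR adjusted p = 0.0181). The strand setting of the counting is not given in the sources used here, so the Prtn3 counts are uncertain, and the part of Plppr3 in them was not tested. Ctsg, cathepsin G (ENSMUSG00000040314, chromosome 14, 56099881 to 56102574), had too few counts for a test, with 3, 1 and 0 in Vehicle 1, 2 and 3 and 10, 13 and 21 in EPO 1, 2 and 3, and its CPM values did not overlap between the groups.

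Of the transcription factors, Cebpe, which drives the secondary granule programme (ENSMUSG00000052435, chromosome 14, 54710360 to 54712174), stood at 0.0869, 0.156 and 0.38 CPM in Vehicle and 0.446, 0.747 and 1.74 CPM in EPO. The groups did not overlap, but Cebpe missed the threshold (edgeR log2 fold change 2.17 with SE 0.70, adjusted p = 0.0597). Gfi1, a repressor needed for granulocyte development (ENSMUSG00000029275, chromosome 5, 107716657 to 107726036), differed less, at 0.261, 0.467 and 0.656 CPM in Vehicle and 0.725, 0.577 and 0.812 CPM in EPO (edgeR log2 fold change 0.59 with SE 0.41, adjusted p = 0.336). The related factors Cebpa, Cebpb and Cebpd, which many cell types express, did not pass either (log2 fold changes 0.071, 0.97 and 0.05), and all of them were highest in EPO 1.

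Secondary and tertiary granule genes included Ngp, with the largest fitted change of any member, and Lcn2, with the smallest. Of the 7, 1 passed (14.3%, against 12.9% of all genes tested that were higher). Camp, the cathelicidin precursor (ENSMUSG00000038357, chromosome 9, 109847379 to 109849617), Ngp, neutrophilic granule protein (ENSMUSG00000032484, chromosome 9, 110419747 to 110423012), and Ltf, the iron-binding lactoferrin (ENSMUSG00000032496, chromosome 9, 111019271 to 111042767), lie near each other on chromosome 9. Ngp had 0.565, 0.389 and 2.45 CPM in Vehicle 1, 2 and 3 and 1.95, 6.04 and 46.4 CPM in EPO 1, 2 and 3, and Ltf 0.826, 0.428 and 2.38 and 1.42, 4.79 and 34.1 CPM. For both genes EPO 1 was below Vehicle 3, and EPO 3 was 11.6 and 11 times the mean of the other EPO libraries. Camp stood at 0.0869, 0.117 and 0.932 CPM in Vehicle and 1.2, 1.7 and 11.2 CPM in EPO, without overlap. None of the 3 passed: the log2 fold change was 3.96 for Ngp (SE 1.25, edgeR adjusted p = 0.0577), 3.45 for Ltf (SE 1.18, 0.0738) and 3.57 for Camp (SE 1.15, 0.0602). Without EPO 3 these log2 fold changes were 1.79, 1.34 and 1.88, while without EPO 1 all 3 passed (edgeR adjusted p = 0.0273, 0.0308 and 0.0432).

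Mmp8, the neutrophil collagenase (ENSMUSG00000005800, chromosome 9, 7558456 to 7568485, plus strand), behaved differently within the same group. It stood at 1.39, 2.33 and 2.93 CPM in Vehicle 1, 2 and 3 and 4.27, 7.4 and 7.76 CPM in EPO 1, 2 and 3, with EPO 2 and EPO 3 close together and no overlap. Mmp8 rose 2.9-fold, from 2.22 ± 0.778 to 6.47 ± 1.92 CPM (SD, n = 3; edgeR log2 fold change 1.54 with SE 0.36, adjusted p = 0.0214). It missed the threshold without Vehicle 1, Vehicle 2, EPO 2 or EPO 3 (edgeR adjusted p = 0.0747, 0.0737, 0.0623 and 0.0572).

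Lcn2, the siderophore-binding lipocalin (ENSMUSG00000026822, chromosome 2, 32384633 to 32388252), was the granule gene with the smallest difference. Its level was 12.9, 30.7 and 58.7 CPM in Vehicle and 34.6, 24.3 and 63 CPM in EPO, the groups overlapped (edgeR log2 fold change 0.25 with SE 0.54, adjusted p = 0.774), and Vehicle 3 was near EPO 3. Many stromal and epithelial cells are known to express Lcn2. It carried most of the summed level of its group in Vehicle: without it the other 6 secondary and tertiary granule genes summed to 6.52, 6.22 and 16.3 CPM in Vehicle 1, 2 and 3 and 15.7, 30.3 and 136 CPM in EPO 1, 2 and 3. Chil3, a chitinase-like lectin that monocytes also express, had 1.87, 1.24 and 4.93 and 3.71, 7.57 and 27.2 CPM (edgeR log2 fold change 2.25 with SE 0.80, adjusted p = 0.0825). Pglyrp1, a peptidoglycan recognition protein, had 1.78, 1.71 and 2.62 and 3.15, 2.85 and 9.56 CPM without overlap (edgeR log2 fold change 1.34 with SE 0.51, adjusted p = 0.0954).

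**Figure D2:**
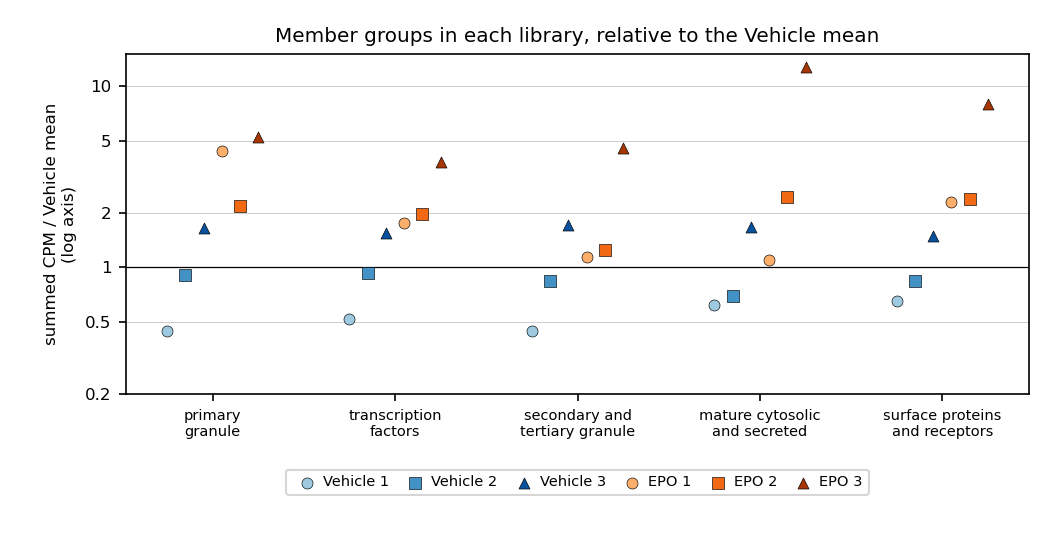
Summed CPM of each member group in each library, divided by the mean of the 3 Vehicle libraries (vertical log axis, line at 1). In the primary granule group EPO 1 (4.41) lies near EPO 3 (5.24), whereas in the mature cytosolic and secreted group EPO 1 (1.1) lies within the Vehicle range and EPO 3 reaches 12.7. The closeness of EPO 1 and EPO 3 depends on Prtn3, whose counts are uncertain. Without it the primary granule genes stood at 5.79, 3.35 and 11.3 in EPO 1, 2 and 3 (not drawn).

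In EPO 2 and EPO 3 the mature cytosolic and secreted genes had the highest summed level of any group, 82.6 and 428 CPM. In Vehicle 2, Vehicle 3 and EPO 1 the secondary and tertiary granule group was higher, with Lcn2 its most abundant gene. S100a8 and S100a9, the calprotectin subunits that together fill much of the neutrophil cytosol, are neighbours on chromosome 3 (ENSMUSG00000056054, chromosome 3, 90668978 to 90670035, and ENSMUSG00000056071, chromosome 3, 90692632 to 90695721). S100a8 had 4.82, 4.55 and 17.9 CPM in Vehicle 1, 2 and 3 and 9.23, 29.8 and 184 CPM in EPO 1, 2 and 3. S100a9 had 5.61, 5.91 and 19.6 and 9.73, 28.2 and 164 CPM. In both, EPO 1 was below Vehicle 3, EPO 2 was above it, and EPO 3 was 9.43 and 8.66 times the mean of EPO 1 and EPO 2. The level of S100a8 divided by that of S100a9 stayed between 0.77 and 1.12 in the 6 libraries. Neither passed (S100a8 edgeR log2 fold change 3.03 with SE 1.09, adjusted p = 0.0845, and S100a9 log2 fold change 2.69, SE 1.02, 0.0974), and without EPO 3 the log2 fold changes were 1.10 and 0.86. Without EPO 1 both passed (edgeR adjusted p = 0.0356 and 0.04).

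Per kilobase of exon, the highest mean EPO levels among the members were 129 CPM per kb for S100a9 and 107 for S100a8, followed by 16.3 for Csf3r, 15.5 for Lcn2 and 14.8 for Ngp. Csf3r, Lcn2 and Ngp did not differ from each other beyond the spread of the libraries. In Vehicle the order was S100a9 at 19.9, S100a8 at 13.1, Lcn2 at 13 CPM per kb and Csf3r at 3.77, where S100a9, S100a8 and Lcn2 again lay within the spread of the libraries. Mpo had 0.029 CPM per kb in Vehicle and 0.454 in EPO.

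Slpi, a secreted inhibitor of elastase and cathepsin G (ENSMUSG00000017002, chromosome 2, 164354070 to 164389095, minus strand), was the 1 gene of the mature group that passed, of 10 tested (10%, against 12.9% of all genes tested that were higher). It stood at 1.56, 1.48 and 4.11 CPM in Vehicle and 9.82, 6.01 and 12.1 CPM in EPO, without overlap and with EPO 1 close to EPO 3. Slpi rose 3.88-fold, from 2.38 ± 1.49 to 9.3 ± 3.07 CPM (SD, n = 3; edgeR log2 fold change 1.95 with SE 0.46, adjusted p = 0.0222). It missed the threshold without Vehicle 1, Vehicle 2 or EPO 3 (edgeR adjusted p = 0.0869, 0.0783 and 0.0567). Slpi and Asprv1 are also known from epithelium, so 8 keratinocyte markers were counted. Of these 4 were tested, 1 was lower (the desmosome gene Dsp) and none higher, against 10.1% and 12.9% of all genes tested. The list summed to 181, 132 and 133 CPM in Vehicle and 28.9, 52 and 68.8 CPM in EPO, most of it Dsp. The basal genes Krt5 and Krt14 had no more than 2 and 4 counts in any library, and Krt10 had 4.82, 3.23 and 3.17 CPM in Vehicle and 3.88, 3.73 and 3.25 CPM in EPO. Lor, a gene of the cornified layer, had 0.348, 0.311 and 0.552 CPM in Vehicle and 4.46, 0.441 and 0.421 CPM in EPO, high in EPO 1 alone (edgeR log2 fold change 2.12 with SE 0.98, adjusted p = 0.156). The part of such cells in the Slpi and Asprv1 counts was not tested. These marker genes were chosen after their values were seen.

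In the other mature genes EPO 3 was again the highest library. Retnlg, a resistin-like secreted protein of neutrophils, had 0.695, 1.36 and 2.48 CPM in Vehicle and 0.53, 3.29 and 12.5 CPM in EPO, with EPO 1 below every Vehicle library (edgeR log2 fold change 1.83 with SE 0.98, adjusted p = 0.218). Stfa2l1, a stefin A type cysteine protease inhibitor, was counted 1, 2 and 19 times in Vehicle and 1, 15 and 152 times in EPO, most of them in EPO 3 (edgeR log2 fold change 2.64 with SE 1.50, adjusted p = 0.239). Stfa2, its paralog, was counted 0, 0 and 2 times in Vehicle and 0, 0 and 3 times in EPO. The stefin A genes form a cluster of near-identical copies on chromosome 16, between which reads may be split, so both values are uncertain. Acod1, which makes itaconate, had 0.521, 0.467 and 2.14 and 1.31, 2.78 and 15.8 CPM (edgeR log2 fold change 2.64 with SE 1.01, adjusted p = 0.101). Asprv1, a retroviral-like aspartic protease, had 0.608, 0.505 and 1.24 and 0.725, 1.66 and 7.97 CPM (edgeR log2 fold change 2.12 with SE 0.87, adjusted p = 0.121).

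Padi4, the enzyme that citrullinates histones in extracellular trap formation, had 0.913, 1.56 and 1.21 CPM in Vehicle and 1.31, 2.17 and 5.17 CPM in EPO, where EPO 1 lay within the Vehicle range (edgeR log2 fold change 1.23 with SE 0.53, adjusted p = 0.134). Hdc, the histamine-forming enzyme, had 4.22, 4.39 and 4.24 and 2.71, 5.02 and 14.8 CPM, with Vehicle libraries almost equal and EPO 1 the lowest of all 6 (edgeR log2 fold change 0.81 with SE 0.56, adjusted p = 0.335). Mast cells also express Hdc, and their markers Mcpt4, Cma1, Tpsb2 and Cpa3 were lower with EPO (4 of 6 tested mast cell markers, none higher, against 10.1% of all genes tested that were lower), with a summed list level of 65.4, 61.7 and 53.7 CPM in Vehicle 1, 2 and 3 and 23.5, 40.9 and 36.2 CPM in EPO 1, 2 and 3. The 6 basophil and eosinophil markers summed to 1.43, 1.91 and 2.21 CPM in Vehicle and 2.04, 3.7 and 8.99 CPM in EPO, highest in EPO 3 as Hdc was. The part of mast cells or basophils in the Hdc counts was not tested. Ifitm6 had 2, 3.19 and 2.69 and 1.73, 3.16 and 6.46 CPM (edgeR log2 fold change 0.52 with SE 0.47, adjusted p = 0.462). Without EPO 3 the log2 fold changes of Hdc, Ifitm6, Lcn2 and Stfa2l1 were -0.15, -0.11, -0.21 and -0.055.

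Among surface proteins and receptors 3 of 8 tested members passed (37.5%, against 12.9% of all genes tested that were higher). Csf3r, the receptor for granulocyte colony-stimulating factor (ENSMUSG00000028859, chromosome 4, 126024550 to 126044440, plus strand), had 9.08, 11.6 and 20.2 CPM in Vehicle 1, 2 and 3 and 31.5, 29.7 and 115 CPM in EPO 1, 2 and 3. EPO 1 and EPO 2 were nearly equal and above every Vehicle library, and EPO 3 was 3.77 times their mean. Csf3r rose 4.31-fold (edgeR log2 fold change 2.11 with SE 0.58, adjusted p = 0.0376), and without EPO 3 its log2 fold change was 1.17. It missed the threshold without Vehicle 1, Vehicle 2, Vehicle 3 or EPO 3 (edgeR adjusted p = 0.136, 0.126, 0.0501 and 0.0505) and in limma-voom (0.0663). Its ligand gene Csf3 (ENSMUSG00000038067, chromosome 11, 98701263 to 98703629) was counted 2, 0 and 13 times in Vehicle and 17, 6 and 6 times in EPO and was not tested. Csf3 was highest in EPO 1 by CPM, with Vehicle 3 next.

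Trem1, a receptor that amplifies inflammatory signalling (ENSMUSG00000042265, chromosome 17, 48232768 to 48246924, plus strand), had 0.435, 0.35 and 1.55 CPM in Vehicle and 3.35, 5.87 and 12.2 CPM in EPO, without overlap. It rose 8.96-fold (edgeR log2 fold change 3.16 with SE 0.69, adjusted p = 0.0175). Trem3, the neighbouring receptor gene on chromosome 17 (ENSMUSG00000041754, chromosome 17, 48247777 to 48258841), had 0.174, 0.156 and 0.276 and 0.446, 0.407 and 2.43 CPM, again without overlap, and missed the threshold (edgeR log2 fold change 2.40 with SE 0.83, adjusted p = 0.0726). Trem1 missed it only without Vehicle 1 or Vehicle 2 among the single libraries left out (edgeR adjusted p = 0.0749 and 0.0628).

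Fpr1, a receptor for bacterial formyl peptides (ENSMUSG00000045551, chromosome 17, 17876471 to 17883940, minus strand), had 0.478, 0.505 and 0.932 CPM in Vehicle and 1.7, 2.41 and 4.39 CPM in EPO, without overlap. It rose 4.38-fold, from 0.638 ± 0.254 to 2.83 ± 1.39 CPM (SD, n = 3; edgeR log2 fold change 2.13 with SE 0.47, adjusted p = 0.0179), and missed the threshold without Vehicle 1 or Vehicle 2 (edgeR adjusted p = 0.0805 and 0.0748). The adjacent Fpr2 (ENSMUSG00000052270, chromosome 17, 17887824 to 17893952), whose ligands include lipoxin and serum amyloid A, had 0.304, 0.505 and 1.38 and 1.09, 1.87 and 5.65 CPM with overlap (edgeR log2 fold change 1.95 with SE 0.76, adjusted p = 0.103). Fpr2 shares 48 exon bases with Fpr3, which was listed at 0 in every library.

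Cd177, a surface partner of proteinase 3, had 0.348, 0.428 and 0.863 CPM in Vehicle and 0.753, 1.66 and 6.07 CPM in EPO, with EPO 1 below Vehicle 3 (edgeR log2 fold change 2.35 with SE 0.80, adjusted p = 0.0715). Ltb4r1, the high-affinity leukotriene B4 receptor, had 1.35, 1.63 and 2.42 and 3.46, 2.95 and 4.39 CPM with no overlap and the smallest SE of any member (edgeR log2 fold change 0.995 with SE 0.31, adjusted p = 0.0566). Mmp25, a membrane-anchored metalloproteinase, had 0.435, 1.09 and 1.07 and 1.65, 0.984 and 2.77 CPM (edgeR log2 fold change 1.05 with SE 0.50, adjusted p = 0.172). Ly6g, the surface antigen used to define mouse neutrophils, had too few counts for a test, with 1, 2 and 6 in Vehicle 1, 2 and 3 and 4, 7 and 33 in EPO 1, 2 and 3, or 0.0435, 0.0778 and 0.207 and 0.112, 0.238 and 0.992 CPM. EPO 3 stood above the other libraries, and EPO 1 and EPO 2 lay within or near the Vehicle range. It belongs to a family of similar genes, so its counts are uncertain, and its mean EPO level of 0.475 CPM per kb was far below that of S100a8 in the same libraries.

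**Figure D3:**
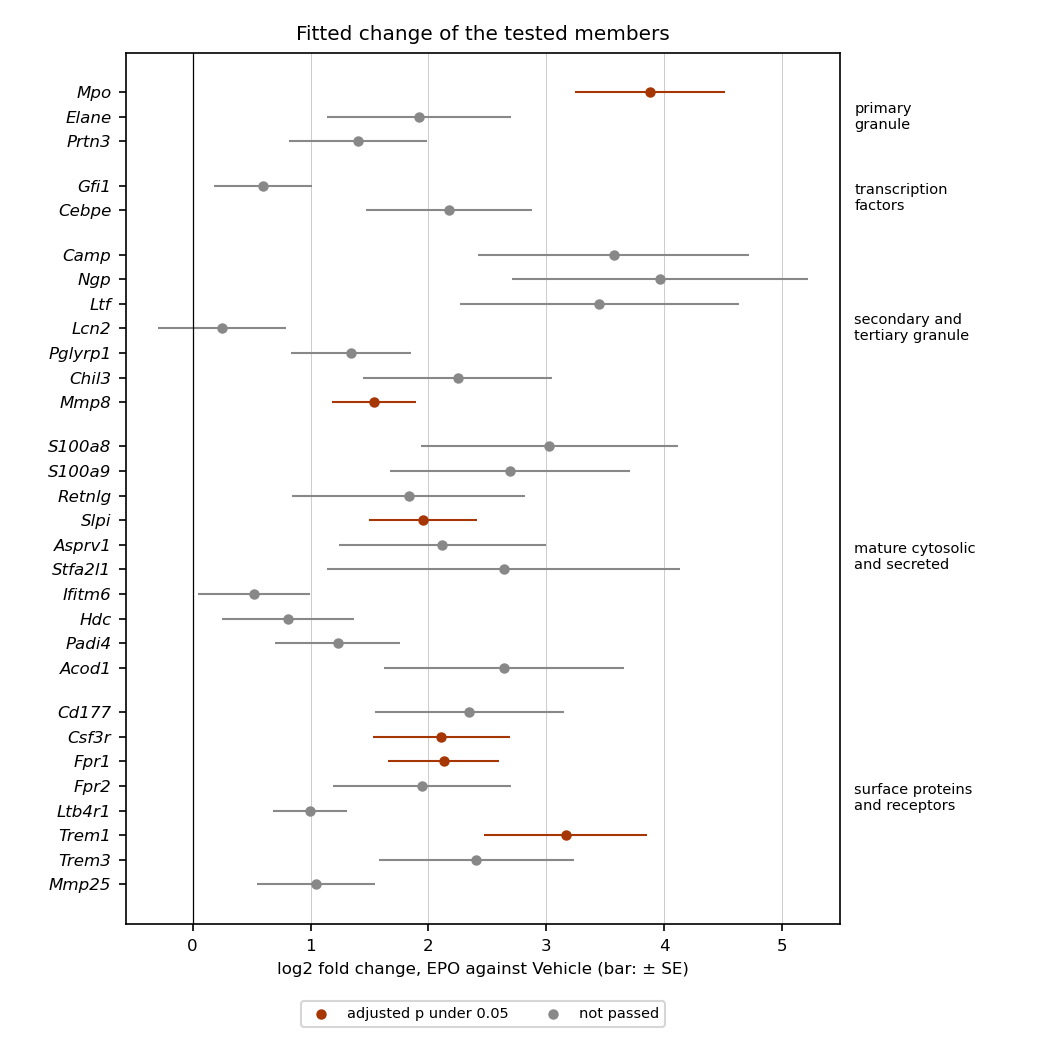
Fitted log2 fold change of EPO against Vehicle for each tested member with its SE (horizontal axis), brown where the edgeR adjusted p was under 0.05. All 30 points lie above 0, from 0.25 for Lcn2 to 3.96 for Ngp, and the 6 that passed are not those with the largest changes, apart from Mpo and Trem1.

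Without EPO 3 the fitted log2 fold changes of the members that passed were 3.38 for Mpo, 2.54 for Trem1, 1.72 for Slpi, 1.67 for Fpr1, 1.39 for Mmp8 and 1.17 for Csf3r. Among early genes that did not pass, Prtn3 stood at 1.44, Cebpe at 1.46, Elane at 1.15 and Gfi1 at 0.48. Among the other granule and mature genes the values were 1.06 for Chil3, 0.95 for Acod1, 0.59 for Asprv1, 0.56 for Pglyrp1, 0.50 for Padi4 and 0.32 for Retnlg. Among the other receptors they were 1.12 for Cd177, 1.05 for Trem3, 0.99 for Fpr2, 0.83 for Ltb4r1 and 0.60 for Mmp25. Prtn3 was the 1 of these genes whose value was not smaller than with all libraries.

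The 6 members that passed differed from the rest in how far EPO 3 exceeded the other EPO libraries, with overlap. EPO 3 was between 1.33 and 3.77 times the mean of EPO 1 and EPO 2 in the 6 that passed (median 2.19) and between 0.932 and 17 times in the 24 that did not (median 4.33). The test sets a change against the spread within groups, so these values are not independent of the calls.

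The sums of early and mature genes were both highest in EPO 3, and they differed in how EPO 1 compared with EPO 2. Relative to the Vehicle mean, the primary granule genes summed to 4.41, 2.19 and 5.24 times in EPO 1, 2 and 3, and the mature cytosolic and secreted genes to 1.1, 2.46 and 12.7 times. Surface proteins and receptors stood at 2.28, 2.39 and 8 times and secondary and tertiary granule genes at 1.15, 1.25 and 4.55 times. Without Lcn2, the secondary and tertiary granule genes stood at 1.62, 3.14 and 14.1 times, above the mature cytosolic and secreted genes in each EPO library. Per 100 CPM of mature cytosolic and secreted genes, primary granule genes had 3.31, 5.96 and 4.53 CPM in Vehicle 1, 2 and 3 and 18.4, 4.11 and 1.9 CPM in EPO 1, 2 and 3. EPO 1 was thus the library with the most early relative to mature transcript and EPO 3 the one with the least. Leaving out Prtn3, whose counts are uncertain, Mpo, Elane and Ctsg had 1.66, 1.82 and 1.16 CPM per 100 in Vehicle and 7.44, 1.93 and 1.26 in EPO. EPO 1 remained highest on that measure, while EPO 3 then lay among the Vehicle libraries. Summed, Mpo, Elane and Ctsg were at 5.79, 3.35 and 11.3 times the Vehicle mean in EPO 1, 2 and 3. The difference between early and mature genes is given as a description and was not tested.

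Genes that guide neutrophils into tissue were counted from a list of 30, of which 27 were tested. Of these 13 were higher (48.1%, against 12.9% of all genes tested) and 0 lower (10.1% of all genes tested), with a median log2 fold change of 1.27. Those of smallest p were C5ar1, the receptor for complement C5a, Alox5ap, which serves leukotriene synthesis, and Cxcl5, a neutrophil chemokine. Cxcl5 rose from 0.608, 1.59 and 2 CPM in Vehicle 1, 2 and 3 to 13.5, 24.9 and 50.2 CPM in EPO 1, 2 and 3 (edgeR log2 fold change 4.37 with SE 0.60, adjusted p = 0.00375). C5ar1 went from 13.3, 22.1 and 16.3 to 58.8, 57.1 and 69 CPM (edgeR log2 fold change 1.84 with SE 0.20, adjusted p = 0.00251) and Alox5ap from 4.52, 6.45 and 6.04 to 22.9, 16.7 and 17.3 CPM (edgeR log2 fold change 1.74 with SE 0.21, adjusted p = 0.00281). In these 3 genes every EPO library was above every Vehicle library, and in C5ar1 and Alox5ap the EPO libraries lay close together. Among the 27 tested, 15 were highest in EPO 3 (14.1% of all genes tested) and 6 in EPO 1 (25.9%), Alox5ap among them. The list is not limited to genes of neutrophils. The part of other cells, such as monocytes and macrophages, in these changes was not tested.

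Of the chemokines that bind Cxcr2, Cxcl2 also rose (1.04, 1.52 and 1.97 to 4.66, 7.98 and 17.9 CPM, edgeR log2 fold change 2.74 with SE 0.52, adjusted p = 0.0111), and Cxcl1 did not pass (log2 fold change 0.55, edgeR adjusted p = 0.311). Among these chemokines Ppbp was also higher (log2 fold change 3.12, edgeR adjusted p = 0.0229). Cxcl3 did not pass (log2 fold change 2.47, edgeR adjusted p = 0.0619) and was highest in EPO 2. Cxcr2 itself, the receptor on neutrophils, followed the mature members, with 0.652, 1.24 and 3.62 CPM in Vehicle and 1.31, 4.68 and 29.8 CPM in EPO (edgeR log2 fold change 2.67 with SE 1.12, adjusted p = 0.126). Cxcr1 had too few counts to be tested. For leukotriene B4, the ligand of Ltb4r1, the synthesis genes Alox5 and Lta4h did not pass (log2 fold changes 0.0079 and 0.20). The endothelial adhesion genes Selp, Sele and Icam1 had log2 fold changes of -0.38, -0.34 and -0.26 and did not pass. Cxcl1, Cxcl2, Cxcl3, Ppbp, Cxcr2 and these adhesion genes were chosen after their values were seen.

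Of 26 phagocyte oxidase and shared myeloid genes, all tested, 15 were higher (57.7%, against 12.9% of all genes tested) and 1 lower (10.1% of all genes tested), with a median log2 fold change of 1.11. These genes are expressed by monocytes and macrophages as well, and 18 of the 26 were highest in EPO 1, against 25.9% of all genes tested. Mmp9, a gelatinase stored in tertiary granules and made by macrophages, rose from 17.3, 16.6 and 14.4 to 52, 87.1 and 109.6 CPM (edgeR log2 fold change 2.37 with SE 0.27, adjusted p = 0.00262). Clec4d, a C-type lectin of myeloid cells, rose from 2.87, 8.63 and 7.35 to 47.9, 57.4 and 51.1 CPM (edgeR log2 fold change 3.05 with SE 0.36, adjusted p = 0.00277), and Myd88, an adaptor of Toll-like receptors, from 23.9, 26.9 and 29.5 to 44.3, 43 and 49.1 CPM (edgeR log2 fold change 0.76 with SE 0.13, adjusted p = 0.0068). The lower gene was Clec7a, a receptor for fungal glucans, chosen after its values were seen (84.7, 89.1 and 101 to 68.9, 35.5 and 34.2 CPM).

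Marker lists of other cells differed in their order of libraries. Of 12 macrophage markers 2 were higher (16.7%, against 12.9% of all genes tested) and none lower. All 12 were highest in EPO 1 (25.9% of all genes tested), and their summed level was 2342, 3384 and 3749 CPM in Vehicle 1, 2 and 3 and 9447, 3296 and 2915 CPM in EPO 1, 2 and 3. The sums in EPO 2 and EPO 3 lay within the Vehicle range. The 8 monocyte markers, which include the member Chil3, summed to 218, 317 and 324 and 356, 465 and 533 CPM. Of the 8, 1 was higher (12.5%, against 12.9% of all genes tested), and 7 were highest in EPO 3 (14.1% of all genes tested). Their sum had the order of the neutrophil members, EPO 3 above EPO 2 above EPO 1. The 8 platelet and megakaryocyte markers summed to 42.2, 45.6 and 50 CPM in Vehicle and 129, 137 and 253 CPM in EPO, again in that order. Of the 7 tested, 2 were higher (Pf4 and Ppbp, 28.6%, against 12.9% of all genes tested) and 5 were highest in EPO 3 (14.1% of all genes tested). Red cell genes gave no such difference: 7 erythroid genes summed to 759, 1551 and 1419 CPM in Vehicle and 492, 1218 and 1464 CPM in EPO, none passed in edgeR, DESeq2 or limma-voom, none had an unadjusted edgeR p under 0.05 (0 of 7), and EPO 1 was the lowest library. The part of these cells in the neutrophil results was not tested. No recruitment gene and no macrophage, monocyte or platelet marker was lower in any of the 3 tools or at an unadjusted edgeR p under 0.05 (0 in each list). The 8 haematopoietic progenitor markers summed to 393, 346 and 328 CPM in Vehicle and 537, 537 and 419 CPM in EPO, without overlap. That sum includes the rise of Cd93 given next, so it does not show a rise of the other markers. Over the 7 tested the median log2 fold change was 0.27, with 1 higher and 1 lower (12.9 and 10.1% of all genes tested). Of the 7 tested, Cd93, which endothelium also expresses, was higher (90.7, 106 and 84.9 to 280.2, 314 and 185 CPM, edgeR log2 fold change 1.47 with SE 0.21, adjusted p = 0.00454) and Hoxa9 was lower (14.2, 12 and 15.1 to 7.22, 6.04 and 6.97 CPM, edgeR log2 fold change -1.03 with SE 0.17, adjusted p = 0.0065). Myb had between 0 and 19 counts in any library, and Flt3 had 0.435, 2.18 and 1.38 CPM in Vehicle and 4.66, 2.1 and 4.18 CPM in EPO (edgeR adjusted p = 0.103). These were chosen after their values were seen.

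**Figure D4:**
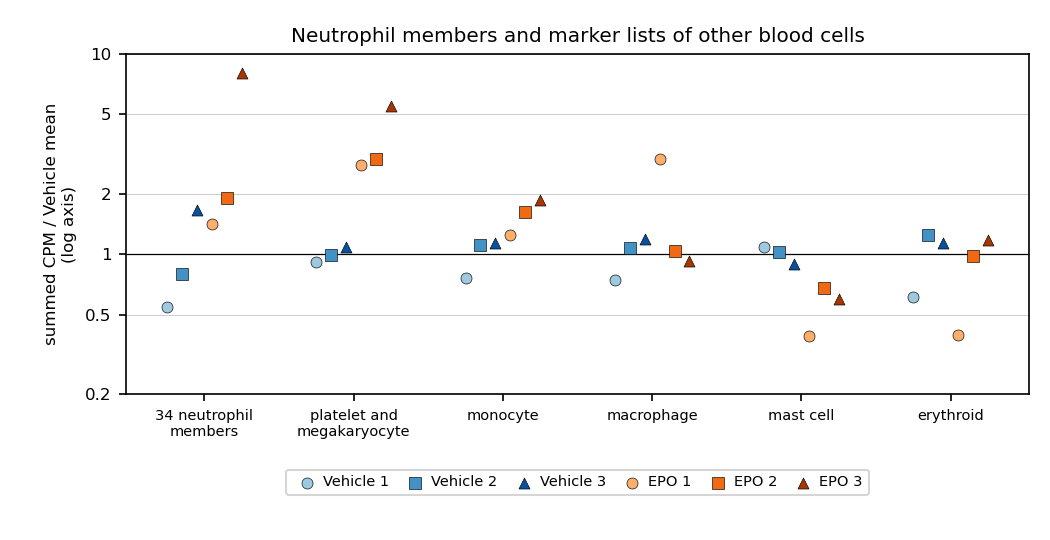
Summed CPM of the 34 neutrophil members and of marker lists of other blood cells in each library, divided by the mean of the 3 Vehicle libraries (vertical log axis, line at 1). EPO 3 is highest for neutrophil members (8) and platelet markers (5.51), EPO 1 for macrophage markers (2.99), and erythroid markers lie on both sides of 1.

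The number of members called depended on the fit. It was 6 with DESeq2's size factors or library size alone as the scaling, with robust dispersion and with haemoglobin, mitochondrial and skeletal muscle genes removed, and 5 in limma-voom and with the minimum of 1 CPM in 3 samples. It was 17 in DESeq2, where 16% of all genes were higher, 17 at an edgeR adjusted p under 0.1 (17.6%) and 19 of 34 without a filter on low counts (8%). In each of these alternatives none was lower.

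**Figure D5:**
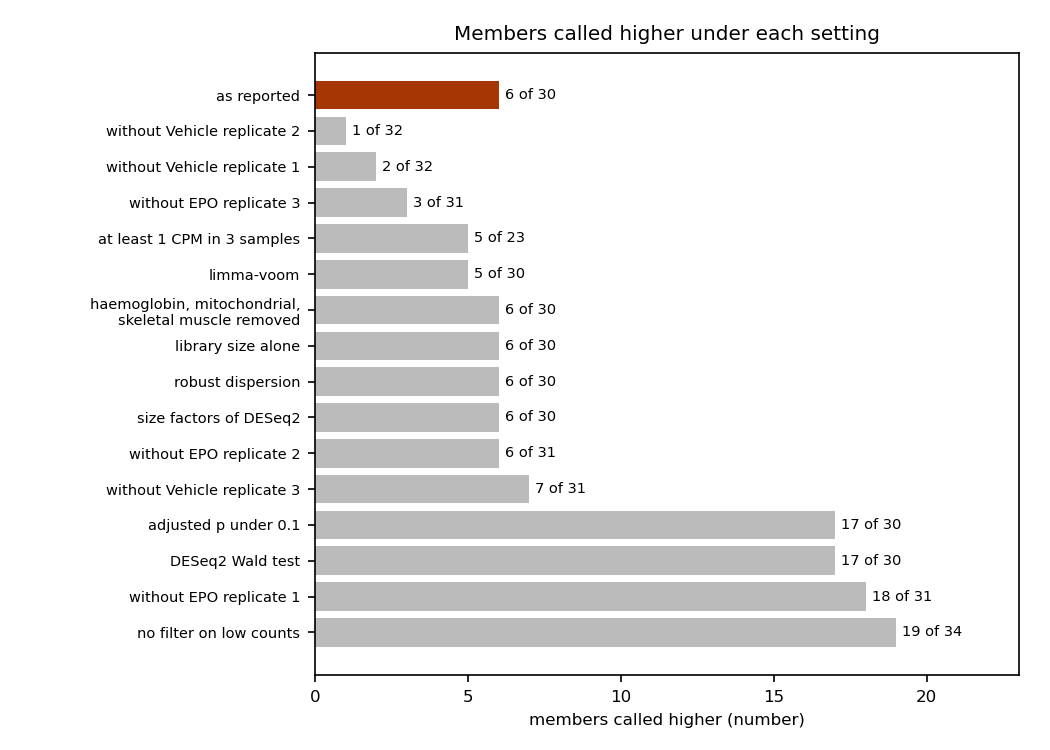
Number of members called higher (horizontal bars from 0) in the fit reported (brown) and under the other settings (grey), with the number tested. The fit with the replicate number as a block, which called 17 of 30, is not drawn. Counts run from 1 without Vehicle 2 to 19 of 34 without a filter, and leaving out EPO 1 gives 18 while leaving out EPO 3 gives 3.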

How the data were processed

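RNA of the aorta was sequenced in 3 Vehicle and 3 EPO libraries. The deposited values are raw counts per Ensembl gene, not normalized by the authors. The submitters' processing notes name CASAVA 1.8, TopHat2 2.0.6 and mm10. Which counter, strand option and annotation were used is not given in the sources used here. Columns named Con were read as Vehicle. Symbols and positions came from GENCODE M21 (GRCm38), which matched 47224 of 47643 IDs; promoter windows came from RefSeq (GRCm38.p6).

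EPO was compared with Vehicle in R 4.3.3 with edgeR 4.0.16: filterByExpr left 16522 genes, TMM scaling, a two-sided quasi-likelihood test with group as the only term, and Benjamini-Hochberg adjustment over all genes tested; adjusted p under 0.05 was called. CPM uses the TMM-scaled library over tested genes. A count of 0 allows up to 3 counts, or 0.0837 to 0.13 CPM by library, for counting error only. The SE is the unshrunken log2 fold change over the square root of the F statistic. The procedure was tested on simulated counts.

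Every member was eligible to be named, and from each further list the 3 tested genes of smallest p and genes paired with a member as ligand, receptor or paralog. Members, lists and tests were chosen with earlier results of these data known. Alternatives were other scalings and filters, DESeq2 1.42.0, limma-voom (limma 3.58.1), robust dispersion, a replicate block, removal of haemoglobin, mitochondrial and skeletal muscle genes, a threshold of 0.1 and each library left out. Marker lists of basophils and eosinophils (1 of 3 tested higher, 0 lower), keratinocytes (0 higher, 1 lower of 4), haematopoietic progenitors (1 and 1 of 7), white adipocytes (0 and 4 of 6), smooth muscle (0 and 7 of 7), skeletal muscle fibres (8 and 0 of 8) and neutrophils (4 and 0 of 9, most of them members) were also counted. Of all genes tested, 12.9% were higher and 10.1% lower.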

Additional observations from a re-analysis of the deposited data

How the results depend on the processing

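The count of members called was 6, and 17 in DESeq2, 17 at an adjusted p under 0.1, 19 without a filter on low counts and 17 with the replicate number as a block (16, 17.6, 8 and 9.87% of all genes higher in these fits). With single libraries left out it ran from 1 to 18, where 5.49 to 13.3% of all genes were higher. The cause was not tested. The 6 members called in the fit reported were also called in DESeq2, without a filter and under the block. Over all tested genes, deviations from the group mean in same-numbered libraries had correlations of -0.0088, -0.0098 and 0.127 for numbers 1, 2 and 3. The value for number 3 was the highest of any pair, followed by 0.12 for Vehicle 1 with EPO 2. Among the 30 tested members, Vehicle 3 was the highest Vehicle library for 26 (29.9% of all genes). EPO 3 was the highest library for 29 (14.1% of all genes). Whether the members deviate together by number was not tested. The numbers are not taken to pair samples, as not every library correlated best with its own number. The block gave 2884 changed genes against 3804. The number of changed genes over the whole table was lowest without Vehicle 1 (1635) and Vehicle 2 (2029) and highest without EPO 1 (4281). The ratio of the summed member level ran from 1.66 (without EPO 3) to 5.62 (without Vehicle 3), within the spread of the EPO libraries. Directions turned in 5 cases, all of them in members that did not pass: with single libraries left out the log2 fold change ran from -0.15 to 1.20 for Hdc, from -0.11 to 0.86 for Ifitm6, from -0.21 to 0.89 for Lcn2 and from -0.055 to 4.70 for Stfa2l1, each lowest without EPO 3, and without Vehicle 1 it was -0.16 for Lcn2. The cause was not tested. Over all tested members and alternatives, 393 of 473 values kept direction and side of the threshold, 59 newly passed, 16 no longer passed and 5 turned. Where 3 libraries meet 3, an exact permutation test of a single value cannot go below p = 0.1, and Vehicle levels near 0.1 CPM (as in Mpo, Ctsg and Ly6g) are at the limit of this depth.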
